A study of Rattus norvegicus with 20 samples.

Results

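Mesenchymal stromal cells (MSCs) from bone marrow can be steered towards bone, fat or cartilage, and 5 genes that mark these choices were followed through priming on soft and stiff culture surfaces. They were Runx2 (ENSRNOG00000020193) and Alpl (ENSRNOG00000013954) for bone, Pparg (ENSRNOG00000008839) and Lpl (ENSRNOG00000012181) for fat, and Sox9 (ENSRNOG00000002607) for cartilage. The genes were chosen as lineage markers by their Ensembl identifiers and make up 5 of the 30560 genes counted. Their values were not the rule of the choice, but earlier results of these data were known when it was made. All 5 had counts in every library and passed the filter on low counts, which left 14034 genes. The symbols come from the selection and could not be checked, because the tables used here do not pair rat Ensembl identifiers with symbols. For the same reason the MSCs could not be checked against their surface markers, nor against markers of blood or endothelial cells, and further genes of each lineage could not be looked up.

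Bulk RNA-seq was done on 20 libraries of MSCs from the bone marrow of female Wistar rats, with no genetic change and no medium that induces differentiation. The cells were isolated directly onto silicone coated with gelatin, were selected with magnetic beads for CD54 and CD90 after a first expansion, and were passaged weekly on 2 kPa, the stiffness of healthy skin and here called soft, or on 100 kPa, the stiffness of scar and here called stiff. The groups 1w2 and 1w100 were cultured for 1 week on soft or stiff and 3w2 and 3w100 for 3 weeks, with 3 libraries each. The groups 5w2 and 5w100 were kept for 5 weeks, and the groups 3w2→2w100 and 3w100→2w2 were switched after 3 weeks to the other surface for 2 weeks, with 2 libraries each. No other treatment separated the groups. Soft-primed denotes 5w2 and 3w2→2w100, and stiff-primed denotes 5w100 and 3w100→2w2.

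The libraries held 16127907 to 24139128 counts. The study describes its biological replicates as MSCs of different rats, but the labels only number the libraries and do not say that a number marks one rat. The p-values below therefore measure the spread between these libraries. Kept and switched libraries of one number and one priming surface deviated together across all genes, with a correlation of deviations from the group means of 0.760 for soft-primed and 0.802 for stiff-primed MSCs, so that the 4 libraries of a priming surface may hold fewer than 4 independent cultures. Same-numbered soft and stiff libraries correlated likewise at 0.626, 0.650 and 0.777 at 1 week, and at 0.389, 0.084 and 0.465 at 3 weeks. The 6 libraries of 1 week, and perhaps those of 3 weeks, may therefore hold fewer than 6 independent sources of cells.

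Runx2 is the transcription factor that opens the bone programme, and Alpl, tissue-nonspecific alkaline phosphatase, is an early enzyme of matrix mineralization. Pparg is the nuclear receptor that drives fat cell formation, and Lpl, lipoprotein lipase, releases fatty acids from lipoproteins and is expressed early as fat cells form. Sox9 is the transcription factor needed for cartilage, and Runx2 and Sox9 are known to oppose each other in progenitors that can form both tissues.

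Of these genes, Lpl varied most. Its level was 3.19-fold lower at 3 weeks than at 1 week, a call that held in 6 of the 12 fits that left out 1 library. At 5 weeks Lpl was 17.5-fold lower in soft-primed than in stiff-primed MSCs (SE 0.76 on the log2 scale, n = 4 and 4), with no overlap of kept or switched libraries. The same-numbered pairs were 2.77- and 3.23-fold apart in replicate 1 and 58.5- and 67.4-fold in replicate 2. Of all genes, 20.9% were called from 1 to 3 weeks and 9.75% by priming surface. The priming difference passed in the model of all 8 groups but not when the groups of 5 weeks were fitted alone. Runx2 was 1.66-fold lower at 3 weeks than at 1 week in MSCs of both surfaces. Alpl, Pparg and Sox9 passed the test in none of the 10 comparisons made, which does not show that they stayed the same. With the replicate number as a block, Pparg passed in 2 of them, in which that fit called 498 and 2297 of all genes. Levels are given as CPM, counts scaled to a common library size with factors from the trimmed mean of M-values, and a gene was called at an adjusted p below 0.05 by edgeR's quasi-likelihood test with Benjamini-Hochberg adjustment over all genes tested. Values are from whole cultures, in which fewer cells expressing a gene and less RNA per cell cannot be told apart.

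**Figure D1:**
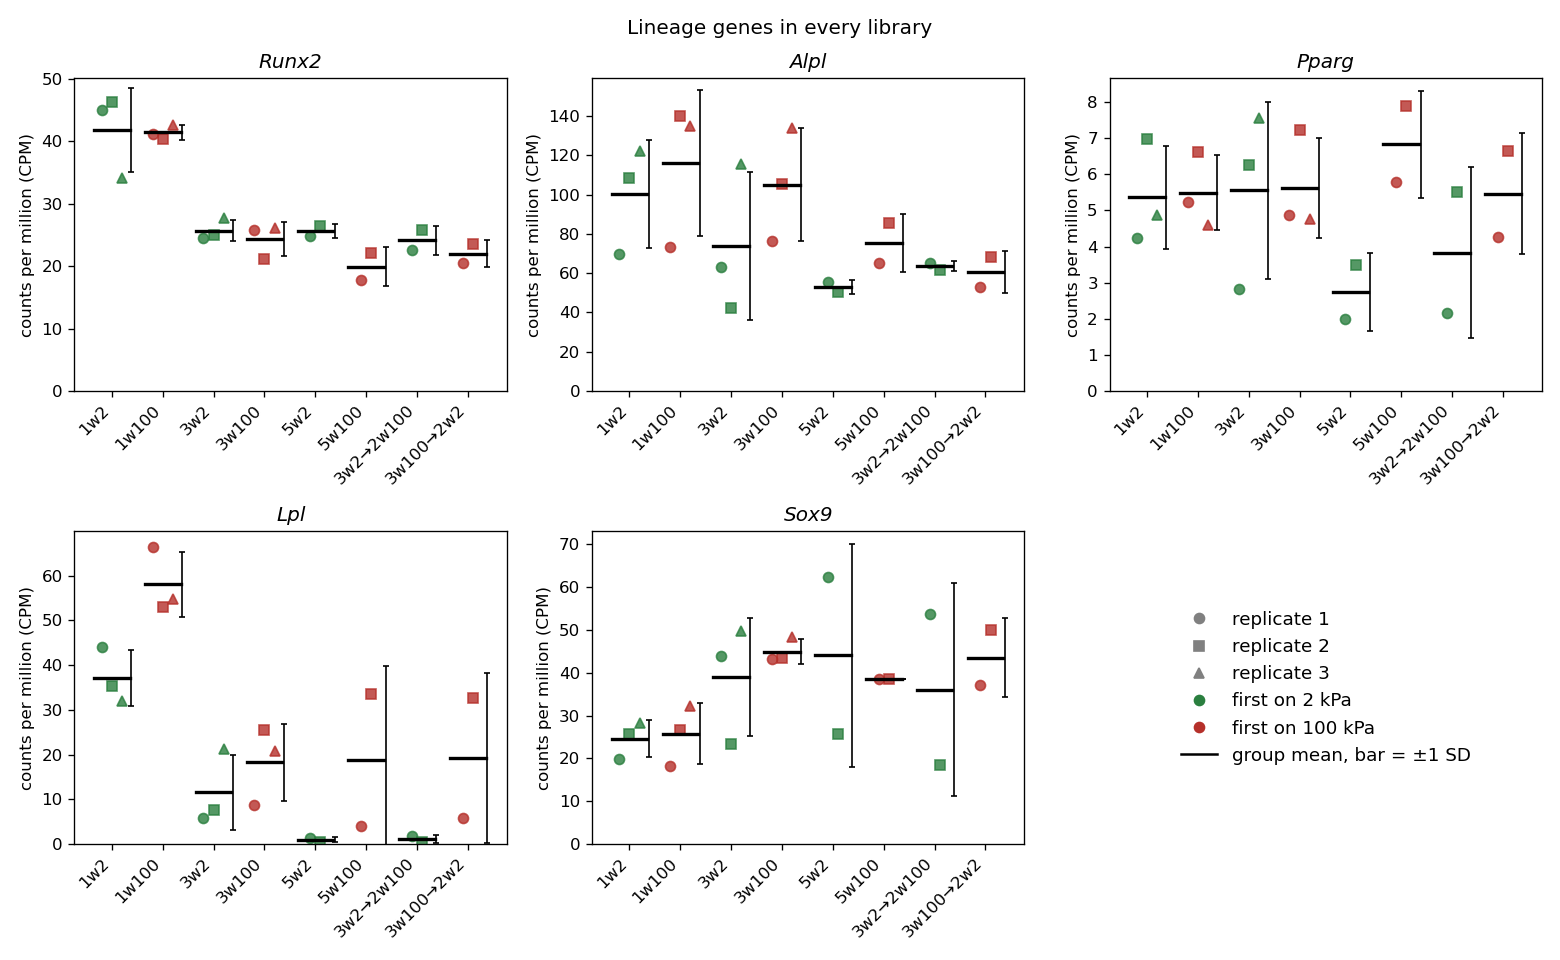
Level of each gene in CPM (vertical axis, from 0) in the 20 libraries by group (horizontal axis). Points are libraries, with the shape giving the replicate number and the colour the first surface, and lines and bars are the group mean ± 1 SD, with bars cut off at 0. The 6 libraries of 1 week stand above all others for Runx2, and the 4 soft-primed libraries of 5 weeks lie between 0.484 and 1.81 CPM for Lpl.

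Runx2 was most abundant in the first week. The 3 libraries of 1w2 had 45.1, 46.3 and 34.1 CPM and those of 1w100 had 41.3, 40.4 and 42.7 CPM. At 3 weeks, 3w2 had 24.5, 24.97 and 27.7 CPM and 3w100 had 25.8, 21.2 and 26.1 CPM. All 6 libraries of 3 weeks thus lay below all 6 of 1 week, and the surfaces overlapped at both times. Of all genes, 13.3% did not overlap between these times, in either direction. At 5 weeks the kept libraries had 24.9 and 26.4 CPM in 5w2 and 17.7 and 22.2 CPM in 5w100. The switched libraries had 22.5 and 25.8 CPM in 3w2→2w100 and 20.5 and 23.6 CPM in 3w100→2w2. All 8 libraries of 5 weeks, at most 26.4 CPM, lay below all 6 of 1 week, at least 34.1 CPM. In order of mean each later group overlapped the next, although 3w2, 5w2 and 3w2→2w100 all lay above 5w100. The share of all genes with such a gap is given below for 5w2 against 5w100. It was not counted for 5 weeks against 1 week or for the other groups.

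The fall of Runx2 from 41.6 CPM at 1 week to 25.04 CPM at 3 weeks had a log2 fold change of -0.73 (SE 0.09, n = 6 and 6 libraries, adjusted p = 4.595e-05, edgeR). It was called in each of the 12 fits that left out 1 library, with adjusted p from 2.843e-05 to 0.0002417 by edgeR. From 3 to 5 weeks the log2 fold change was -0.15 (SE 0.10, adjusted p = 0.517, edgeR). Among libraries of one group Runx2 was also among the steadier genes. Its biological coefficient of variation, the spread between libraries beyond counting error, was 0.119, lower than the median of 0.161 over all genes tested, and with 310 to 926 counts per library it was well measured.

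The RefSeq table of start sites holds 2 windows for Runx2 (assembly GRCr8, a later build than that of the counts), each from 250 bases before to 50 after a start. They are shown because Runx2 is known to be transcribed from separate promoters that give proteins with different first residues, whereas the counts sum all transcripts of the gene, so the fall cannot be assigned to either start. The first lies at chr9:23664808-23665107 and the second at chr9:23742990-23743289, both on the + strand. Capitals mark TGTGGT or its reverse complement ACCACA, the core letters bound by RUNX factors, searched on both strands.

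Runx2 window 1: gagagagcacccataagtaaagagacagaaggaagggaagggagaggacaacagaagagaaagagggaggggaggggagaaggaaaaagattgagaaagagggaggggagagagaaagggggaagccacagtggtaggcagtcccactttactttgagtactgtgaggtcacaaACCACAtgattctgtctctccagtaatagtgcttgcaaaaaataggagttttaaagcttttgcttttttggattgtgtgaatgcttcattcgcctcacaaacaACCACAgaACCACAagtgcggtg

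Runx2 window 2: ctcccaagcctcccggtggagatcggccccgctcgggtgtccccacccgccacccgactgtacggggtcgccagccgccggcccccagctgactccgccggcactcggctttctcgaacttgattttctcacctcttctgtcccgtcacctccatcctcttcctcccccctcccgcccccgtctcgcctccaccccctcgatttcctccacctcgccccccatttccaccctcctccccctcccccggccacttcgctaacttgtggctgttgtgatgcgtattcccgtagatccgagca

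The first window holds the letters 3 times, on the reverse strand at 76 bases before and at 27 and 35 bases after the start, and the second does not hold them. Of 33469 rat windows of 300 bases in the same table, 17.3% held these letters at least once and 0.209% at least 3 times. Runx2 protein is known to bind its own upstream promoter, and a match of letters is a description of the sequence, not a measured site. The letters GGAATG of TEAD factors, through which YAP acts, and AGATAA of GATA factors did not occur in either window, whereas 14.2% and 11.6% of all windows held them on one strand or the other.

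Alpl, the other bone gene, varied widely among libraries of one group. At 1 week it was at 69.5, 109 and 122 CPM in 1w2 and 73.1, 140 and 135 CPM in 1w100. At 3 weeks it was at 63.2, 42.2 and 115 CPM in 3w2 and 76.2, 105 and 134 CPM in 3w100. Replicate 1 was lowest in both 1-week groups, and all groups overlapped their neighbours in order of mean. At 5 weeks Alpl was at 55.5 and 50.5 CPM in 5w2 and 65.0 and 85.7 CPM in 5w100. After the switch it was at 65.3 and 61.7 CPM in 3w2→2w100 and 53.1 and 68.0 CPM in 3w100→2w2.

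On the stiff surface Alpl was higher in each of the 8 same-numbered pairs of kept MSCs, by 1.05-, 1.29- and 1.10-fold at 1 week, 1.21-, 2.49- and 1.16-fold at 3 weeks, and 1.17- and 1.70-fold at 5 weeks. The log2 fold changes of soft against stiff were -0.21 (SE 0.33), -0.51 (SE 0.33) and -0.51 (SE 0.41), with adjusted p of 1, 0.848 and 0.585 by edgeR, so that it passed at no time in the unpaired fit. With the replicate number as a block it did not pass either, at -0.21, -0.54 and -0.48 (adjusted p = 1, 0.461 and 0.370, edgeR). The 3 times were not tested together, and how many of all genes agreed in all 8 pairs was not counted. The labels do not say that the numbers pair libraries. Across all genes the deviations correlated at only 0.084 in the 2.49-fold pair and 0.178 at 5 weeks, against 0.389 to 0.777 in the others. The biological coefficient of variation of Alpl was 0.285. The change from 1 to 3 weeks was -0.29 on the log2 scale (SE 0.24, adjusted p = 0.411, edgeR) and that from 3 to 5 weeks was -0.48 (SE 0.27, adjusted p = 0.428, edgeR), so neither passed the test.

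Pparg, the fat regulator, had the fewest counts, from 37 to 161 per library. It was at 4.23, 6.97 and 4.89 CPM in 1w2 and 5.24, 6.63 and 4.61 CPM in 1w100. It was at 2.82, 6.27 and 7.57 CPM in 3w2 and 4.86, 7.22 and 4.77 CPM in 3w100. The 4 groups of 1 and 3 weeks overlapped, with means from 5.36 to 5.62 CPM. The log2 fold change from 1 to 3 weeks was 0.04 (SE 0.27, 95% interval -0.55 to 0.63, adjusted p = 0.937, edgeR).

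At 5 weeks the group means lay further apart, from 2.74 to 6.83 CPM, although in order of mean each group overlapped the next. Pparg was at 1.99 and 3.50 CPM in 5w2 and 5.78 and 7.88 CPM in 5w100. It was at 2.16 and 5.50 CPM in 3w2→2w100 and 4.28 and 6.66 CPM in 3w100→2w2. Replicate 2 was above replicate 1 in each of the 4 groups, so that the level of Pparg went with the number as well as differing between group means. In a fit without the replicate number, 5w2 against 5w100 had a log2 fold change of -1.32 (SE 0.49, adjusted p = 0.211, edgeR) and soft-primed against stiff-primed -0.92 (SE 0.34, adjusted p = 0.104, edgeR), and neither was called. With the replicate number as a block both were called, at -1.35 (adjusted p = 0.0400, edgeR) and -0.97 (adjusted p = 0.0119, edgeR). That fit called 498 of all 14034 genes tested in the first comparison and 2297 in the second, against 37 and 1369 without the block. It takes a replicate number to have the same effect at all times, which was not checked. In the unblocked fit, leaving out 1 library called the priming difference in 1 of 8 fits, that without replicate 2 of 3w2→2w100 (-1.33, adjusted p = 0.0417, edgeR), and the values ranged up to -0.65 (adjusted p = 0.296, edgeR) without replicate 1 of that group. With kept and switched libraries of one number and priming surface summed, it was -0.94 and not called (adjusted p = 0.346, edgeR).

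A window of 300 bases before and around 1 of the 2 Pparg starts in the RefSeq table, at chr4:150154522-150154821 on the + strand of GRCr8, holds the RUNX letters once, at 7 bases before the start. It is shown because RUNX letters were searched in the windows of every gene described here that has an entry, and apart from the first Runx2 window it is the one with a match. The other Pparg window and the single window of Alpl hold none, and Lpl and Sox9 have no entry.

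Pparg window 2: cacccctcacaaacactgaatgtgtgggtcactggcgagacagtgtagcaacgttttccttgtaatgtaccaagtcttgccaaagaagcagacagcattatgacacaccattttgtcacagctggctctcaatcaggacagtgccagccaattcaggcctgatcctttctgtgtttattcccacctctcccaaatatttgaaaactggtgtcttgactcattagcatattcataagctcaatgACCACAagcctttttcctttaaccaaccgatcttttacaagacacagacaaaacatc

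Lpl, the fat gene downstream of Pparg, had the largest biological coefficient of variation of the 5, 0.606, above that of 95.2% of the genes tested. In 1w2 it was at 43.9, 35.3 and 31.9 CPM, from 548 to 903 counts. In 1w100 it was at 66.4, 53.0 and 54.8 CPM, from 1022 to 1457 counts. Non-overlap of 1w2 and 1w100 was not counted over all genes. For Lpl the stiff libraries all lay above the soft ones, by 1.51-, 1.499- and 1.72-fold in the same-numbered pairs. Against the spread over all groups this was not called, at a log2 fold change of -0.65 for soft against stiff (SE 0.69, adjusted p = 1, edgeR).

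At 3 weeks Lpl was at 5.92, 7.55 and 21.2 CPM in 3w2 and 8.76, 25.4 and 20.7 CPM in 3w100. All 6 libraries were below all 6 of 1 week, and the surfaces overlapped. Between these times 13.3% of all genes did not overlap, in either direction. The mean went from 47.6 to 14.9 CPM, a log2 fold change of -1.67 (SE 0.51, adjusted p = 0.0292, edgeR). This call was less secure than that of Runx2, for it held in 6 of the 12 fits that left out 1 library. It was lost without replicate 1 of 1w2 (adjusted p = 0.0641), 1w100 (0.0595), 3w2 (0.0735) or 3w100 (0.0689), without replicate 2 of 3w2 (0.0692) and without replicate 3 of 3w100 (0.0509), all by edgeR, at log2 fold changes that stayed between -2.07 and -1.50. Soft against stiff at 3 weeks had a log2 fold change of -0.65 (SE 0.71, adjusted p = 0.915, edgeR).

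At 5 weeks Lpl separated by the first surface. In soft-primed MSCs its counts were low, with 33 and 12 counts (1.42 and 0.575 CPM) in 5w2 and 31 and 8 counts (1.81 and 0.484 CPM) in 3w2→2w100. In stiff-primed MSCs it had 69 and 614 counts (3.95 and 33.6 CPM) in 5w100 and 108 and 573 counts (5.85 and 32.6 CPM) in 3w100→2w2. Every soft-primed library was below every stiff-primed one. The 2 sides did not overlap, in either direction, for 19.3% of all genes. Replicate 2 of both stiff-primed groups lay within the range of 1w2. The highest soft-primed library, with 31 counts, had an exact Poisson interval of 21.1 to 44.0 counts and the lowest stiff-primed one, with 69, had 53.7 to 87.3, so that these libraries of similar depth were apart beyond counting error.

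The mean level of Lpl was 1.07 CPM after soft and 19.0 CPM after stiff priming, a log2 fold change of -4.13 (SE 0.76, 95% interval -5.75 to -2.51, n = 4 and 4, adjusted p = 0.00541, edgeR). The difference was called in all 8 fits that left out 1 library, with log2 fold changes from -4.75 without replicate 1 of 3w2→2w100 to -3.27 without replicate 2 of 3w100→2w2 and -3.01 without replicate 2 of 5w100. Its size depended on the replicate number. In replicate 1 stiff-primed exceeded soft-primed 2.77-fold in the kept and 3.23-fold in the switched MSCs, and in replicate 2 it did so 58.5-fold and 67.4-fold. The call was lost when the 4 groups of 5 weeks were fitted alone (-4.13, adjusted p = 0.0968, edgeR) and when kept and switched libraries of one number and priming surface were summed into 1 (-4.15, adjusted p = 0.0644, edgeR), a step chosen after seeing the data.

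**Figure D2:**
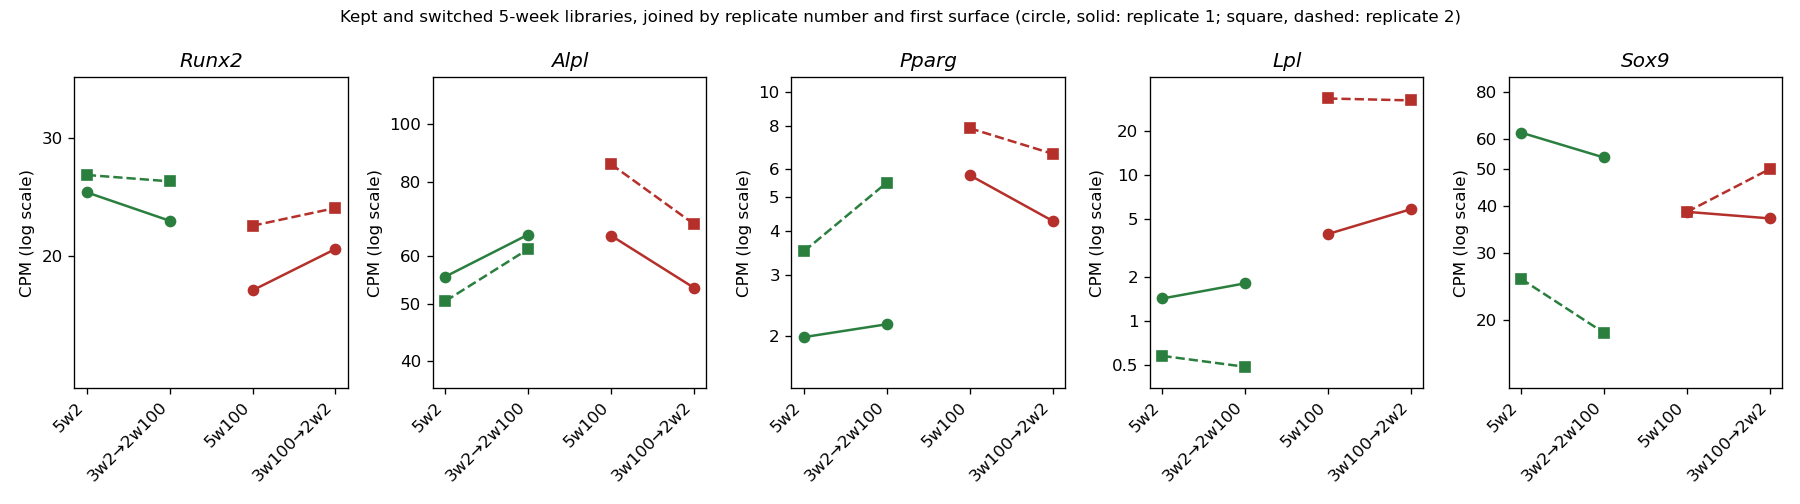
CPM on a log axis (vertical) in the 8 libraries of 5 weeks by group (horizontal), green for first on 2 kPa and red for first on 100 kPa. Lines join the kept and the switched library of one replicate number and first surface, solid for replicate 1 and dashed for replicate 2. The scale differs between the panels. Within a first surface the lines of Lpl shift 0.842- to 1.48-fold from kept to switched. Lines of Lpl for the 2 surfaces lie 58.5- to 67.4-fold apart in replicate 2 and 2.77- to 3.23-fold apart in replicate 1. Those of Alpl and Pparg end higher on the stiff surface in all 4 pairs, by 1.18- to 1.26-fold and 1.09- to 1.57-fold.

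With the surface of the last 2 weeks, Lpl moved in no constant direction. Switching soft-primed MSCs to stiff gave 1.27- and 0.842-fold the kept level, and switching stiff-primed MSCs to soft gave 1.48- and 0.970-fold. The contrast of current soft against current stiff was -0.08 on the log2 scale (95% interval -1.69 to 1.53, adjusted p = 0.9999, edgeR), an interval that leaves room for a change of up to about the size seen between 1 and 3 weeks. Of the other genes, Alpl was higher on the current stiff surface in 4 of 4 pairs of one number and priming surface, by 1.18-, 1.22-, 1.22- and 1.26-fold, and so was Pparg, by 1.09-, 1.57-, 1.35- and 1.18-fold. Runx2 was higher on the current soft surface in 4 of 4 pairs, by 1.10-, 1.02-, 1.15- and 1.06-fold. None of these differences was called. The log2 fold changes of current soft against current stiff were -0.29 (interval -0.91 to 0.33) for Alpl, -0.40 (-1.13 to 0.33) for Pparg, 0.11 (-0.12 to 0.35) for Runx2 and 0.23 (-0.47 to 0.93) for Sox9. How many of all genes agreed in 4 of 4 pairs was not counted.

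Sox9, the cartilage factor, was lower at 1 week than in most later libraries. At 1 week it was at 19.9, 25.7 and 28.2 CPM in 1w2 and 18.2, 26.7 and 32.3 CPM in 1w100. At 3 weeks it was at 43.9, 23.4 and 49.8 CPM in 3w2 and 43.2, 43.4 and 48.2 CPM in 3w100. With the exception of replicate 2 of 3w2, every 3-week library exceeded every 1-week library. The log2 fold change from 1 to 3 weeks was 0.74 (SE 0.27, adjusted p = 0.0661, edgeR), just short of the threshold for a call. It was called in 3 of 18 alternative fits, with adjusted p from 0.0197 to 0.162. These were the fit without that library, the only 1 of 12 that left out a library to call it (0.87, adjusted p = 0.0364, edgeR), DESeq2 (0.72, adjusted p = 0.0378) and the 4 groups of 1 and 3 weeks fitted alone (0.72, adjusted p = 0.0197, edgeR).

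At 5 weeks Sox9 was at 62.5 and 25.7 CPM in 5w2 and 38.6 and 38.5 CPM in 5w100. In the switched groups it was at 53.7 and 18.5 CPM in 3w2→2w100 and 37.1 and 50.02 CPM in 3w100→2w2. Replicate 2 was the low library of 3w2, 5w2 and 3w2→2w100, all first cultured on soft. It was the lowest of none of the groups of 3 and 5 weeks first cultured on stiff, apart from 5w100 with nearly equal values. Priming had a log2 fold change of -0.04 (SE 0.33, 95% interval -0.74 to 0.66, adjusted p = 0.965, edgeR).

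From 1 to 3 weeks the fold changes of Runx2 and Sox9 thus had opposite signs, of which that of Runx2 was called and that of Sox9 was not. Within each library, the ratio of Runx2 to Sox9 counts, which needs no scaling between libraries, was 1.21 to 2.27 in the 6 libraries of 1 week with a median of 1.66. At 3 weeks it was 0.489 to 1.07, with a median of 0.557, so the times did not overlap. Runx2 alone did not overlap between these times either. Nor did the other count ratios taken. Alpl to Lpl was 1.10 to 3.83 at 1 week and 4.14 to 10.7 at 3 weeks. Pparg to Lpl was 0.0789 to 0.197 and 0.230 to 0.831. How many pairs of genes have such a gap was not counted. At 5 weeks the ratio of Runx2 to Sox9 was 0.398 to 1.40 with a median of 0.511. The 2 ratios above 1 were replicate 2 of 5w2 and of 3w2→2w100, where Sox9 was low. The ratio compares counts of transcripts of different lengths, so only its change between libraries is meaningful, not its distance from 1.

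**Figure D3:**
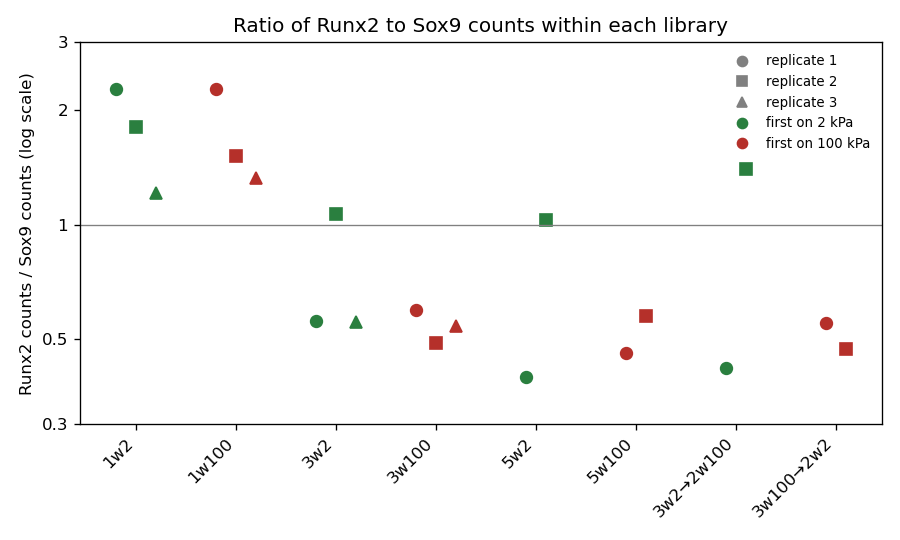
Ratio of Runx2 to Sox9 counts within each library (vertical, log axis) by group (horizontal), with the replicate number as shape and the first surface as colour. The 6 libraries of 1 week lie at 1.21 to 2.27 and the 6 of 3 weeks at 0.489 to 1.07.

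Counted over the 5 genes, soft against stiff in kept MSCs called none by edgeR at 1, 3 or 5 weeks without a block, and Pparg at 5 weeks with the replicate block. Of all genes tested, edgeR without a block called 0% at 1 week, 0% at 3 weeks and 0.264% at 5 weeks. Before adjustment 54, 863 and 2167 genes passed 0.05. With the replicate block edgeR called 0, 1 and 498 genes. The calls of DESeq2 over all genes numbered 0, 11 and 592. Among the 5 genes 0, 0 and 3 passed 0.05 before adjustment by edgeR, whereas the calls of DESeq2 were 0, 0 and 1, the last being Lpl (-4.24, adjusted p = 0.00229, DESeq2). At 5 weeks 5w2 and 5w100 did not overlap for Runx2, Alpl, Pparg and Lpl, but 43.1% of all genes did not overlap with 2 libraries a side. Lpl had a log2 fold change of -4.21 there (SE 1.07, adjusted p = 0.0869, edgeR). It was -5.04 without replicate 1 of 5w100 and shrank to -1.96 without replicate 2 of 5w100. Runx2 had a log2 fold change of 0.36 (SE 0.16, adjusted p = 0.280, edgeR), with 25.6 CPM in 5w2 and 19.95 CPM in 5w100.

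Whether the surface difference changed between 1 and 5 weeks was tested as an interaction, which called none of the 5 genes by edgeR or DESeq2 and 0% of all genes by edgeR, with 983 passing 0.05 before adjustment and 36 calls by DESeq2. Of the 5, only Lpl passed without adjustment, with a change of -3.56 on the log2 scale (SE 1.25, adjusted p = 0.569, edgeR). Without replicate 2 of 5w100 it was -1.31, and over all fits without 1 library it ranged from there to -4.39. Pparg had -1.28 (SE 0.62, adjusted p = 0.726, edgeR).

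Time in culture called 2 of the 5 genes between 1 and 3 weeks, Runx2 and Lpl, both lower, where 20.9% of all genes were called. The same genes were the 2 whose libraries did not overlap between the times, as was so for 13.3% of all genes. DESeq2 called 3 of the 5, with Sox9 added, and 3275 of 15485 genes tested. Between 3 and 5 weeks none was called by edgeR or DESeq2, and 0.0285% of all genes were by edgeR. At an unadjusted p below 0.05 only Lpl passed there, at -1.73 (SE 0.65, adjusted p = 0.252, edgeR). Without 1 library this ranged from -2.86 (adjusted p = 0.0580, edgeR), without replicate 2 of 5w100, to -1.32, without replicate 1 of 5w100.

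Without a block, priming called 1 of the 5 genes, Lpl, where 9.75% of all genes were called, and Lpl was also the only one of the 5 whose libraries did not overlap, against 19.3% of all genes. Runx2 had 24.9 CPM after soft and 21.0 CPM after stiff priming, a log2 fold change of 0.25 (SE 0.11, adjusted p = 0.167, edgeR), and Alpl had 58.3 and 68.0 CPM (-0.22, SE 0.29, adjusted p = 0.667, edgeR). The current surface called 0% of all genes and none of the 5 by edgeR or DESeq2, with 114 genes, none of the 5 among them, passing 0.05 before adjustment and 0 calls by DESeq2 over all genes.

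Memory of the first surface was also read group by group on one current surface, in comparisons that share the kept groups with those above. On stiff, 3w2→2w100 against 5w100 called 0.057% of all genes and none of the 5 by edgeR. On soft, 3w100→2w2 against 5w2 called 0.178% of all genes and none of the 5 by edgeR. Lpl was the gene that passed an unadjusted p below 0.05 in each. Its log2 fold changes were -4.02 (SE 1.08, adjusted p = 0.118, edgeR) on stiff and 4.24 (SE 1.07, adjusted p = 0.0979, edgeR) on soft. DESeq2 called Lpl in both (adjusted p = 0.00551 and 0.00218), where it called 445 of 13933 and 443 of 14709 genes tested. On stiff the size for Lpl depended on the library left out, at -4.85 without replicate 1 of 5w100 and -1.77 without replicate 2 of 5w100. On soft it was 2.52 (adjusted p = 0.891, edgeR) without replicate 2 of 3w100→2w2 and 5.04 without replicate 1 of 5w2. Pparg lay on the same sides, at -0.83 (SE 0.48, adjusted p = 0.468, edgeR) and 1.00 (SE 0.49, adjusted p = 0.388, edgeR), without passing.

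**Figure D4:**
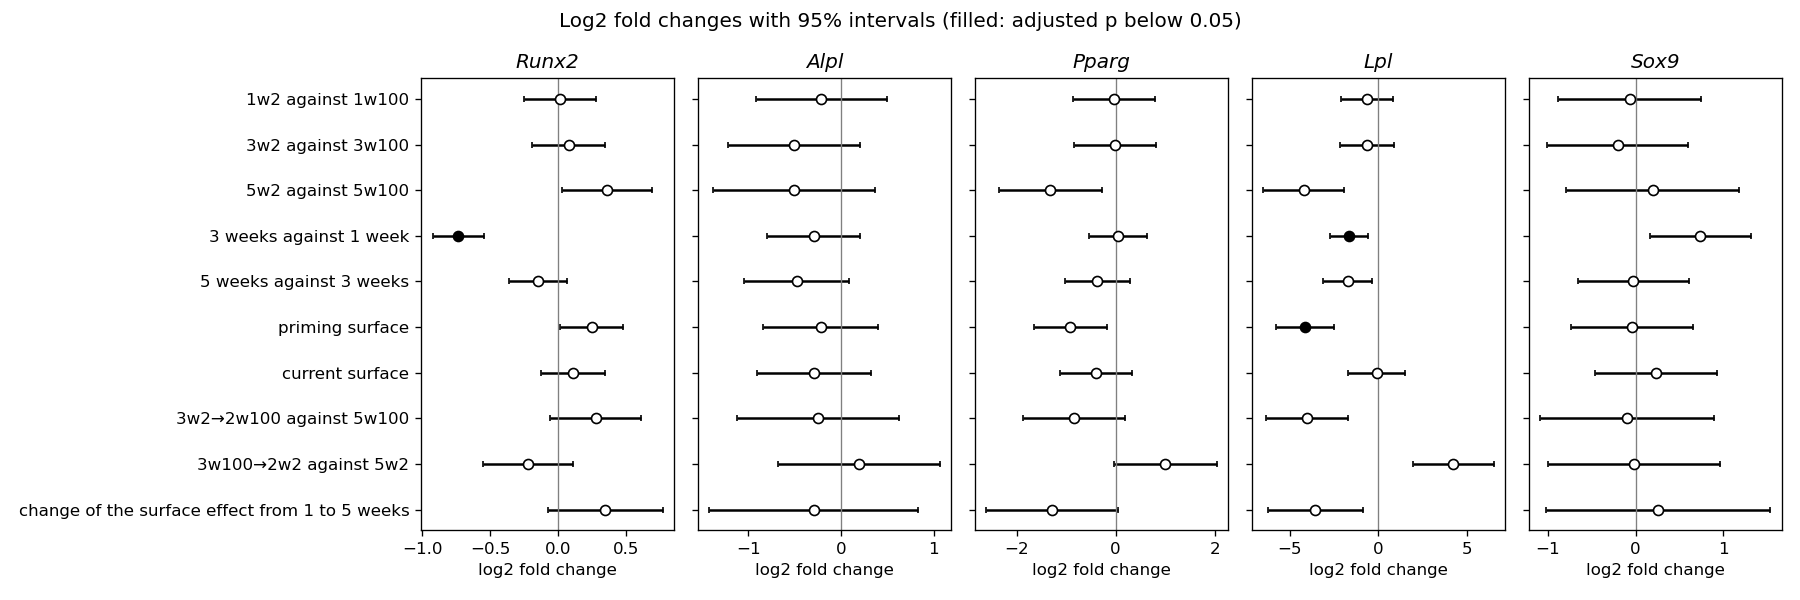
Log2 fold change (horizontal) with its 95% interval for each gene in each of the 10 comparisons (vertical), from edgeR. For soft against stiff in kept MSCs and for the current surface, values below 0 are lower on soft. For the priming surface, values below 0 are lower after soft priming. For a switched against a kept group, values below 0 are lower in the switched group. For the interaction, values below 0 mean that soft against stiff was lower at the later time. Filled points are called, namely Runx2 and Lpl at 3 weeks against 1 week and Lpl by priming surface. The scale differs between the panels.

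The genes whose log2 CPM ran most closely with Runx2 and Lpl over the 20 libraries were sought as a description, since the libraries share groups and time points. ENSRNOG00000071035 was closest to Runx2, with a Pearson correlation of 0.947, and 120 genes were above 0.9. ENSRNOG00000007970 was closest to Lpl, with 0.974, and 118 genes were above 0.9. For Alpl, Pparg and Sox9 the closest genes reached 0.884, 0.887 and 0.887, and none was above 0.9.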

How the data were processed

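Bulk RNA-seq was analysed in 20 libraries of 8 groups, assigned by the sample labels. The deposited values are unnormalized counts for each Ensembl gene, which the authors made by trimming with Trim Galore, checking with FastQC, mapping to rn7 (mRatBN7.2) with HISAT2 and counting with featureCounts, and used DESeq2 themselves. Tool versions, the strand setting and the treatment of multi-mapping reads were not given in the sources used here. Reads shared with overlapping genes or close copies are therefore an uncertainty. The 5 genes and the lists of lineage and marker genes were chosen with earlier results of these data known. All 5 are reported in every comparison, and the 73 symbols on the lists could not be matched to identifiers.

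Counts were fitted with edgeR 4.0.16 under R 4.3.3 (TMM scaling, filterByExpr with a minimum count of 10 and total of 15, 1 quasi-likelihood model of 8 groups without a block). Fits were tested on simulated data. Log2 CPM adds a prior count of 2. For a contrast over several groups the fold change averages the groups on the log scale. DESeq2 1.42.0, other scaling, filters and samples, the replicate block and leaving out each library were the alternatives. Poisson intervals cover counting error only.

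Same-numbered libraries deviated together across genes at 1 week (r = 0.626, 0.650 and 0.777) and in all pairs of 5-week groups (r from 0.168 to 0.802), but not in all pairs at 3 weeks (0.389, 0.084 and 0.465). The pairing within a time therefore comes from the data, not from the labels, and blocked values are given where they change a call. The block fits an effect for each replicate number that is shared over all times. Whether a number pairs libraries across times was not checked, so the blocked calls rest on that assumption.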

Additional observations from a re-analysis of the deposited data

How the results depend on the processing

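Direction and side of the threshold were kept by 314 gene values in fits without 1 library, while 36 changed sign, 6 lost and 4 gained a call. Under the other alternatives 298 were kept, 3 changed sign, 2 lost and 7 gained a call.

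The number of the 5 genes called moved for 5w2 against 5w100 (0) to 1 by DESeq2, to 1 with the replicate block, and between 0 and 1 without 1 library. For 3w2→2w100 against 5w100 (0) it was 1 by DESeq2 and 0 to 1 without 1 library, and for 3w100→2w2 against 5w2 (0) it was 1 by DESeq2. For the priming surface (1) it was 2 with the replicate block, 0 with only the 4 groups fitted, 0 with pairs summed and 1 to 2 without 1 library. For 3 weeks against 1 week (2) it was 3 by DESeq2, 3 with only the 4 groups fitted and 1 to 2 without 1 library. The replicate block changed no other call.

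Signs turned mostly for values near 0. With the replicate block Sox9 was at 0.10 for 5 against 3 weeks and 0.0588 for 3w100→2w2 against 5w2, and with pairs as the block Lpl was at 0.0267 for the current surface. Without 1 library, log2 fold changes ranged as follows. In 1w2 against 1w100 they were -0.0647 to 0.14 for Runx2, -0.27 to 0.12 for Pparg and -0.27 to 0.13 for Sox9. In 3w2 against 3w100 they were -0.012 to 0.13 for Runx2, -0.31 to 0.30 for Pparg and -0.42 to 0.0599 for Sox9. Pparg had -0.11 to 0.20 for 3 weeks against 1 week and -0.66 to 0.0078 for the current surface, where Lpl had -0.94 to 1.04. Sox9 had -0.41 to 0.23 for 5 against 3 weeks, -0.59 to 0.70 for 5w2 against 5w100, -0.52 to 0.25 for the priming surface, -0.16 to 0.71 for the current surface, -0.52 to 0.76 for 3w100→2w2 against 5w2, -1.06 to 0.48 for 3w2→2w100 against 5w100 and -0.52 to 0.76 for the interaction. The causes were not tested.

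With 2 or 3 libraries a group, differences of the size seen for Alpl, and for Pparg without the block, did not pass the test, and the 8 to 33 counts of Lpl in soft-primed MSCs make its fold changes imprecise. Where leaving out a library leaves 1 in a group, that library is assumed to vary like the other groups.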
